A study of Homo sapiens with 6 samples.

Results

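The genes described here are 38 aminoacyl-tRNA synthetases and partner proteins, among 20474 annotated genes in each expression table. They were taken by gene symbol and fall into 22 cytosolic members (19 synthetase genes and the scaffold proteins AIMP1, AIMP2 and EEF1E1) and 16 mitochondrial members, whose names end in 2. The cells were HCT116, an established human colorectal cancer line. Of the 6 libraries, 3 came from cells given a control siRNA (sicontrol, genotype WT) and 3 from cells given an siRNA against POU2F1 (siPOU2F1, genotype POU2F1 knockdown), all sequenced as polyA RNA 48 h after transfection. Every library came from the 1 cell line, and the sources used here do not say whether the replicates were separate cultures. P-values therefore rest on the spread among these 6 libraries alone, and that spread may be technical.

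Aminoacyl-tRNA synthetases join each amino acid to its tRNA, the step that sets which amino acid a codon receives. The cytosolic enzymes serve translation of nuclear-encoded messages, and the mitochondrial enzymes are encoded in the nucleus, imported, and serve the few proteins made inside mitochondria. GARS1 and KARS1 are exceptions, since each gene gives both a cytosolic and a mitochondrial enzyme. Synthetases form class I and class II by the fold of the catalytic domain. Several cytosolic ones sit in a multi-synthetase complex held together by AIMP1, AIMP2 and EEF1E1. Many cytosolic synthetase genes are known targets of ATF4, the transcription factor of the amino acid and integrated stress response. POU2F1 encodes OCT1, which binds the octamer motif in DNA.

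Values were FPKM (fragments counted per transcript length and per library size), which are per length and so allow levels to be compared between genes. Library values are always listed in the order of replicates 1 to 3. POU2F1 itself stood at 4.16, 3.60 and 4.26 FPKM in sicontrol and at 1.87, 1.69 and 1.73 FPKM in siPOU2F1. In log2 the difference came to -0.99 ± 0.14 (SE; limma, adjusted p = 0.0333), and the exact two-sided permutation p of 0.1 is the smallest that 3 libraries against 3 can give. With 5 libraries POU2F1 passed only in the fit that omitted siPOU2F1 replicate 3 (limma, adjusted p = 0.00946), and the other 5 such fits gave adjusted p from 0.114 to 0.222. siPOU2F1 replicate 3, in which POU2F1 was as low as in the other two, stood apart over all tested genes. Across genes, which are not independent replicates, Pearson's r was 0.946 to siPOU2F1 replicate 1, 0.948 to siPOU2F1 replicate 2 and 0.977 to sicontrol replicate 2. Values without it are given below for the members, and for some of the lists, whose calls or signs changed. That library was singled out by these same values, so p-values without it follow a choice made on the data and are descriptive. All 8 epithelial markers were present, and their summed level was 2826 to 3705 FPKM in sicontrol and 3851 to 5449 FPKM in siPOU2F1. With all 6 libraries 0 of the 8 had an adjusted p under 0.05 (limma). Without siPOU2F1 replicate 3, 4 did, all higher, beside 9.48% of all tested genes. Of 5 fibroblast, 5 leukocyte and 4 endothelial markers, COL1A1 alone averaged at least 1 FPKM (2.55 FPKM), and COL3A1, DCN and PTPRC were listed at 0 in every library. The fibroblast markers summed to 1.93 to 2.58 FPKM in sicontrol and 1.55 to 3.58 FPKM in siPOU2F1, the leukocyte markers to 0.923 to 1.63 and 1.42 to 1.61 FPKM, and the endothelial markers to 0.666 to 0.954 and 0.597 to 0.708 FPKM. Mitochondrially encoded RNA held 6.45% to 8.32% of the FPKM sum in sicontrol and 5.97% to 7.64% in siPOU2F1. Relative to sicontrol replicate 1, the other libraries had depths of 0.930, 0.902, 0.778, 0.972 and 0.940 in the order sicontrol 2 and 3, then siPOU2F1 1 to 3. The part of depth or of the epithelial markers in the values below was not tested.

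Cytosolic synthetase messages were far more abundant than mitochondrial ones. The median level over the 6 libraries was 61.7 FPKM among the 22 cytosolic members and 8.79 FPKM among the 16 mitochondrial members. GARS1, the glycine enzyme, was the highest cytosolic member (mean of 229 FPKM over all libraries), followed by the tryptophan enzyme WARS1 (177 FPKM) and the methionine enzyme MARS1 (153 FPKM). TARS1, for threonine, averaged 152 FPKM, SARS1, for serine, 139 FPKM, AARS1, for alanine, 113 FPKM and YARS1, for tyrosine, 111 FPKM. WARS1 and MARS1 overlapped in their single-library values, so the order of these neighbours is not fixed. FARSB, the beta subunit of the phenylalanine enzyme, averaged 10.7 FPKM, below the alpha subunit FARSA at 33.0 FPKM, although the enzyme contains both. Among the mitochondrial members IARS2, for isoleucine, was highest at 44.6 FPKM. NARS2, for asparagine, averaged 24.5 FPKM, RARS2, for arginine, 22.3 FPKM and CARS2, for cysteine, 21.5 FPKM.

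**Figure D1:**
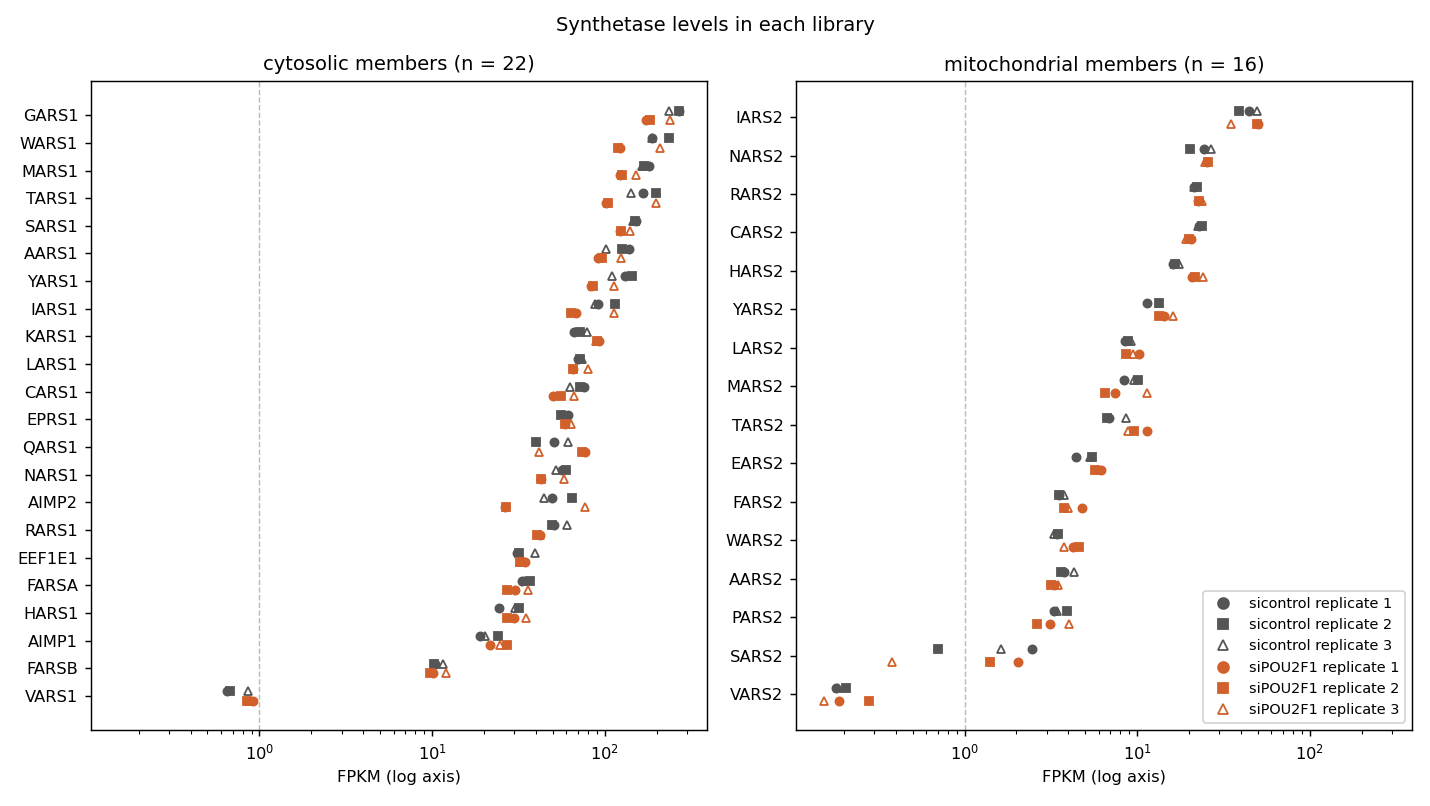
FPKM on a log axis for each of the 22 cytosolic and 16 mitochondrial members, ordered by mean level, with 1 point per library (grey for sicontrol, orange for siPOU2F1, a marker shape for each replicate, open for replicate 3; the dashed line is at 1 FPKM). Cytosolic members run from GARS1 (mean 229 FPKM) down to FARSB (10.7 FPKM) with VARS1 alone below 1 FPKM, and mitochondrial members from IARS2 (44.6 FPKM) to SARS2 (1.43 FPKM) with VARS2 below 1 FPKM.

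The valine enzymes were the exceptions at the low end. VARS1 (chromosome 6, 31777518 to 31795953, minus strand, GRCh38) measured 0.650, 0.678 and 0.856 FPKM in sicontrol and 0.915, 0.843 and 0.857 FPKM in siPOU2F1. VARS2 (chromosome 6, 30908242 to 30926459, plus strand) measured 0.179, 0.207 and 0.184 FPKM in sicontrol and 0.186, 0.280 and 0.154 FPKM in siPOU2F1. Both averaged below 1 FPKM, the level required for testing, and the groups overlapped for both. They lie in the same stretch of chromosome 6, whose other genes were looked at after the values were seen. Of 57 protein-coding genes lying wholly between positions 30808242 and 31895953, 17 (29.8%) averaged at least 1 FPKM, against 54.2% of those on the rest of chromosome 6. The 57 include VARS1 and VARS2, whose low values led to the choice of this stretch. The levels there were mixed. DDR1, a collagen receptor beside VARS2, averaged 15.2 FPKM, the antigen-presenting genes HLA-C and HLA-B 127 and 63.4 FPKM, and CLIC1, a chloride channel protein, 11.9 FPKM. CSNK2B, the regulatory subunit of casein kinase 2, was listed at 1.68, 0 and 1.62 FPKM in sicontrol and at 1.43, 1.31 and 1.48 FPKM in siPOU2F1. LSM2, a core protein of the U6 snRNP, averaged 1.96 FPKM. VARS2 shares 22.0% of its exonic bases with GTF2H4 on the same strand (means of 0.473 and 0.411 FPKM). Whether the levels of VARS1 and VARS2 in these tables reflect the RNA in the cells was not tested.

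With all 6 libraries, no synthetase or scaffold gene passed the test. Of 36 tested members, 0 were called by limma at an adjusted p under 0.05, where 1.24% of all 11831 tested genes were called. Adjusted p-values ran from 0.139 to 0.976. A negative log2 fold change (siPOU2F1 minus sicontrol, on the log2(FPKM + 0.5) scale) was found for 16 of 21 tested cytosolic members and 5 of 15 mitochondrial members, beside 51.5% of all tested genes. The difference between the compartments was not tested. The median log2 fold change was -0.24 for cytosolic members and 0.09 for mitochondrial members, beside -0.01 over all tested genes. At an unadjusted p under 0.05, 4 cytosolic members were lower and 1 was higher, and 0 mitochondrial members were lower and 2 were higher. The background shares at that level were 9.9% of tested genes lower and 8.22% higher.

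**Figure D2:**
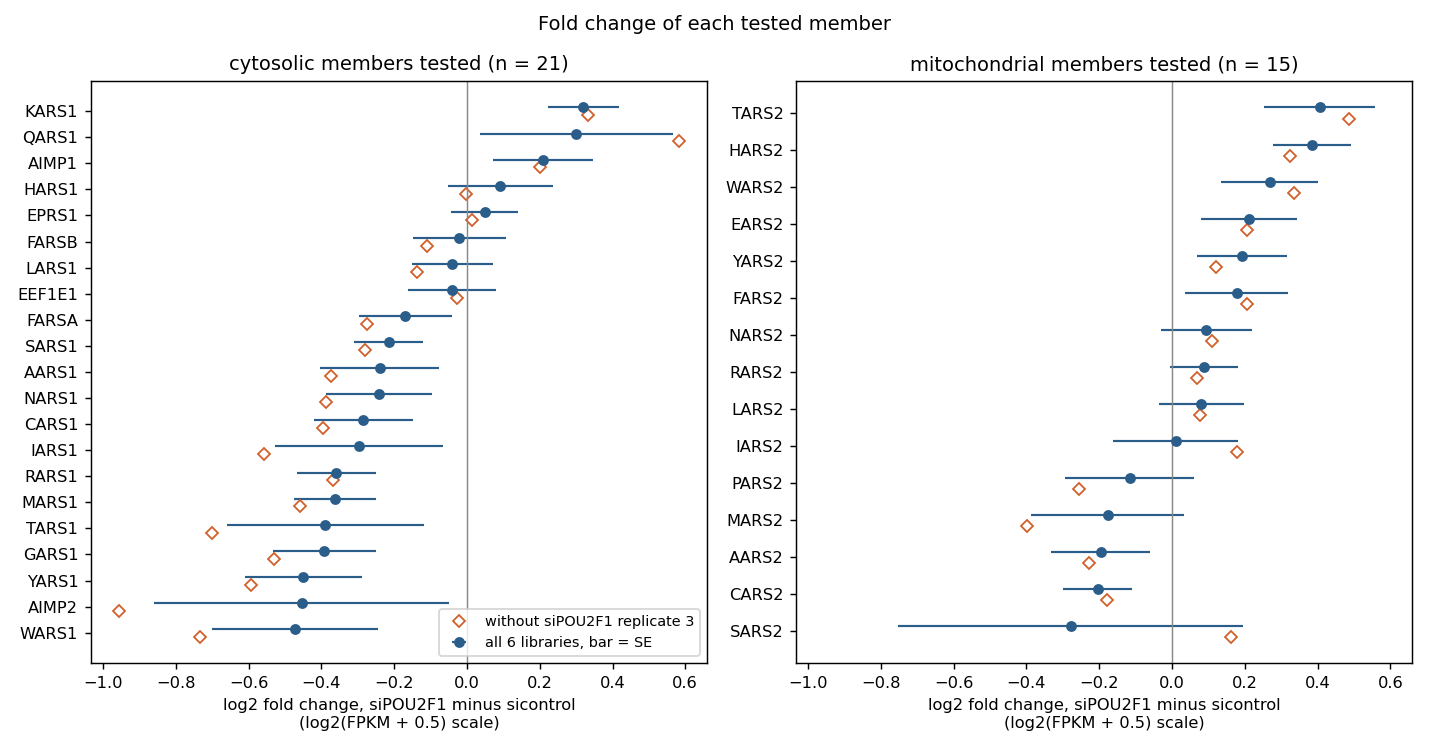
Log2 fold change (siPOU2F1 minus sicontrol, log2(FPKM + 0.5) scale) of the 21 tested cytosolic and 15 tested mitochondrial members, with circles for all 6 libraries (bars are SE) and diamonds for the fit without siPOU2F1 replicate 3. Cytosolic members range from WARS1 at -0.47 to KARS1 at 0.32 and mitochondrial members from SARS2 at -0.28 to TARS2 at 0.41; diamonds of AIMP2, TARS1 and WARS1 lie well to the left of their circles.

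Among the cytosolic synthetases, MARS1, RARS1 and SARS1 were below every sicontrol library in every siPOU2F1 library. Their groups did not overlap, as was true in the lower direction for 12% of all tested genes and in the higher direction for 11.3%. MARS1 (ENSG00000166986; chromosome 12, 57475445 to 57517569, plus strand), which also charges the initiator tRNA, measured 181, 170 and 164 FPKM in sicontrol and 123, 126 and 153 FPKM in siPOU2F1. The means were 172 ± 8.67 and 134 ± 16.2 FPKM (SD, n = 3 each), and the log2 fold change came to -0.36 ± 0.11 (SE; adjusted p = 0.171). siPOU2F1 replicate 3 lay nearest to the controls. RARS1 (ENSG00000113643; chromosome 5, 168486445 to 168519299, plus strand), the arginine enzyme of the complex, measured 51.1, 49.5 and 60.5 FPKM in sicontrol and 42.1, 40.6 and 42.1 FPKM in siPOU2F1. Here the 3 siPOU2F1 libraries were alike, and the log2 fold change came to -0.36 ± 0.11 (SE; adjusted p = 0.163). SARS1, for serine, measured 152, 151 and 146 FPKM in sicontrol and 123, 124 and 141 FPKM in siPOU2F1 (-0.21, SE 0.09, adjusted p = 0.289).

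GARS1, WARS1, YARS1, CARS1 and TARS1 had lower means in siPOU2F1 but overlapping groups. GARS1 (ENSG00000106105; chromosome 7, 30594681 to 30634033, plus strand) measured 271, 270 and 237 FPKM in sicontrol and 175, 183 and 239 FPKM in siPOU2F1, a log2 fold change of -0.39 (SE 0.14, adjusted p = 0.218). WARS1 (ENSG00000140105; chromosome 14, 100333788 to 100376805, minus strand), which is also induced by interferon gamma, measured 189, 235 and 188 FPKM in sicontrol and 123, 120 and 210 FPKM in siPOU2F1 (-0.47, SE 0.23, adjusted p = 0.321). YARS1 measured 131, 145 and 110 FPKM against 83.8, 85.1 and 114 FPKM (-0.45, SE 0.16, adjusted p = 0.214). In all of these, siPOU2F1 replicates 1 and 2 lay below every control library and replicate 3 lay among the controls. CARS1, for cysteine, followed the same pattern, at 75.6, 72.2 and 62.6 FPKM in sicontrol and 50.3, 56.0 and 66.7 FPKM in siPOU2F1 (-0.29, SE 0.14, adjusted p = 0.316). TARS1, chosen after its values were seen, showed it most widely among the synthetases. It measured 166, 200 and 142 FPKM in sicontrol and 102, 104 and 198 FPKM in siPOU2F1 (-0.39, SE 0.27, adjusted p = 0.453). AARS1 (-0.24), NARS1 (-0.24), IARS1 (-0.30) and FARSA (-0.17) were negative with adjusted p from 0.394 to 0.497. FARSB measured 10.4, 10.3 and 11.6 FPKM in sicontrol and 10.1, 9.74 and 12.0 FPKM in siPOU2F1 (-0.02, SE 0.13, adjusted p = 0.936). LARS1 (-0.04), EPRS1 (0.05) and HARS1 (0.09) were close to 0.

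KARS1 and QARS1, both of the multi-synthetase complex, had positive fold changes. KARS1 (ENSG00000065427; chromosome 16, 75627474 to 75648643, minus strand), the lysine enzyme, measured 66.6, 72.0 and 79.0 FPKM in sicontrol and 92.5, 89.9 and 89.1 FPKM in siPOU2F1. Every siPOU2F1 library exceeded every control, and the log2 fold change came to 0.32 ± 0.10 (SE; adjusted p = 0.167). GENCODE holds 3 pseudogenes named after KARS1, so reads may be shared with them, and the same holds for 13 members in all with 17 such pseudogenes. QARS1, the glutamine enzyme, was chosen after its values were seen. It measured 50.6, 40.3 and 61.5 FPKM in sicontrol and 76.9, 73.6 and 41.5 FPKM in siPOU2F1 (0.30, SE 0.27, adjusted p = 0.544), again with siPOU2F1 replicate 3 at the level of sicontrol replicate 2.

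The scaffold proteins did not move together. AIMP2, also a pro-apoptotic factor outside the complex, measured 49.8, 64.5 and 44.4 FPKM in sicontrol and 26.5, 26.9 and 76.7 FPKM in siPOU2F1, and is given in full because of that spread. siPOU2F1 replicates 1 and 2 were the lowest of the 6 libraries and replicate 3 the highest, giving -0.45 with an SE of 0.41 (adjusted p = 0.549). AIMP2 shares 28.9% of its exonic bases with EIF2AK1 on the opposite strand (means of 60.0 and 71.0 FPKM), and the strand setting of the counting is not given in the sources used here. AIMP1, the precursor of a secreted cytokine, had 0.21 (adjusted p = 0.430), and EEF1E1 had -0.04 (adjusted p = 0.866).

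Without siPOU2F1 replicate 3, the library singled out by its own values, the cytosolic picture was a different one. The adjusted p-values of that fit do not allow for this choice. In that fit 10 of 21 cytosolic members were called lower and 1 higher, where 15.8% of all tested genes were called lower and 9.48% higher. The 10 were AIMP2 (log2 fold change -0.96), WARS1 (-0.73), TARS1 (-0.70), YARS1 (-0.59), IARS1 (-0.56), GARS1 (-0.53), MARS1 (-0.46), CARS1 (-0.39), NARS1 (-0.39) and SARS1 (-0.28). Their adjusted p-values lay between 0.0116 for WARS1 and 0.0491 for SARS1, and QARS1 was the member called higher (0.58, adjusted p = 0.0493). RARS1 (-0.37, adjusted p = 0.0570) and KARS1 (0.33, adjusted p = 0.0561) did not pass although their groups were apart with all libraries. None of the 15 mitochondrial members was called in this fit, where 4 had an unadjusted p under 0.05. Over all genes 5016 of 11814 had an unadjusted p under 0.05 in this fit. The cytosolic median became -0.37 and the mitochondrial median 0.12. Leaving out any other library called 0 members in limma, with 1 to 5 cytosolic members and 1 or 2 mitochondrial members at an unadjusted p under 0.05. Over all genes the number at that level ran from 1179 without siPOU2F1 replicate 2 to 2043 without sicontrol replicate 3, each of 11821 tested.

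Library by library, the cytosolic median relative to the sicontrol mean was -0.34, -0.34 and 0.05 in siPOU2F1 replicates 1 to 3. The mitochondrial medians were 0.19, 0.07 and 0.13, so their sign was the same in all 3, while the cytosolic median was positive in replicate 3. The SD of the median over the 3 siPOU2F1 libraries was 0.225 for cytosolic members, about the size of the median itself, and 0.0565 for mitochondrial members. Over all tested genes these medians were -0.04, -0.03 and 0.04. siPOU2F1 replicate 3 was the highest siPOU2F1 library for 16 of 21 cytosolic members and for 6 of 15 mitochondrial members, beside 50.6% of all tested genes. For 8 of the cytosolic members, sicontrol replicate 2 was also the highest control (38.1%, beside 31.6% of all tested genes). Summed over the 22 cytosolic members, the level was 1921, 2033 and 1806 FPKM in sicontrol and 1472, 1481 and 1951 FPKM in siPOU2F1. The 16 mitochondrial members summed to 185, 182 and 201 FPKM and to 207, 199 and 194 FPKM.

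The cytosolic members were also divided by ATF4, by complex and by class. These divisions do not hold the same members, so their medians are not ranked. The scaffold proteins are left out of the ATF4 and class divisions, and EPRS1 is left out of the class division. Among the 12 synthetases listed as ATF4 targets, 11 had a negative fold change and the median was -0.29. Among the 6 tested other cytosolic synthetases, 3 were negative and the median was 0.04. The medians of these 6 were -0.01, -0.10 and 0.10 in siPOU2F1 replicates 1 to 3. Without siPOU2F1 replicate 3 their median was -0.06, with 0 called lower and 1 higher. The ATF4 target list had medians of -0.47, -0.42 and 0.04 in siPOU2F1 replicates 1 to 3, and siPOU2F1 replicate 3 was the highest siPOU2F1 library for all 12. None was called with all libraries. At an unadjusted p under 0.05, 3 of the 12 were lower, beside 9.9% of all tested genes. Without siPOU2F1 replicate 3, 9 of the 12 were called lower, beside 15.8% of all tested genes. By location, 10 of 11 tested synthetases outside the complex were negative (median -0.24) against 6 of 10 complex members (median -0.04). For all 11 outside the complex and for 5 of the 10 complex members, siPOU2F1 replicate 3 was the highest siPOU2F1 library. By fold, the medians were -0.33 for 8 class I and -0.21 for 9 class II cytosolic synthetases, and 0.08 and 0.09 for 8 class I and 7 class II mitochondrial ones. These lists overlap one another, and the differences between them were not tested.

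**Figure D3:**
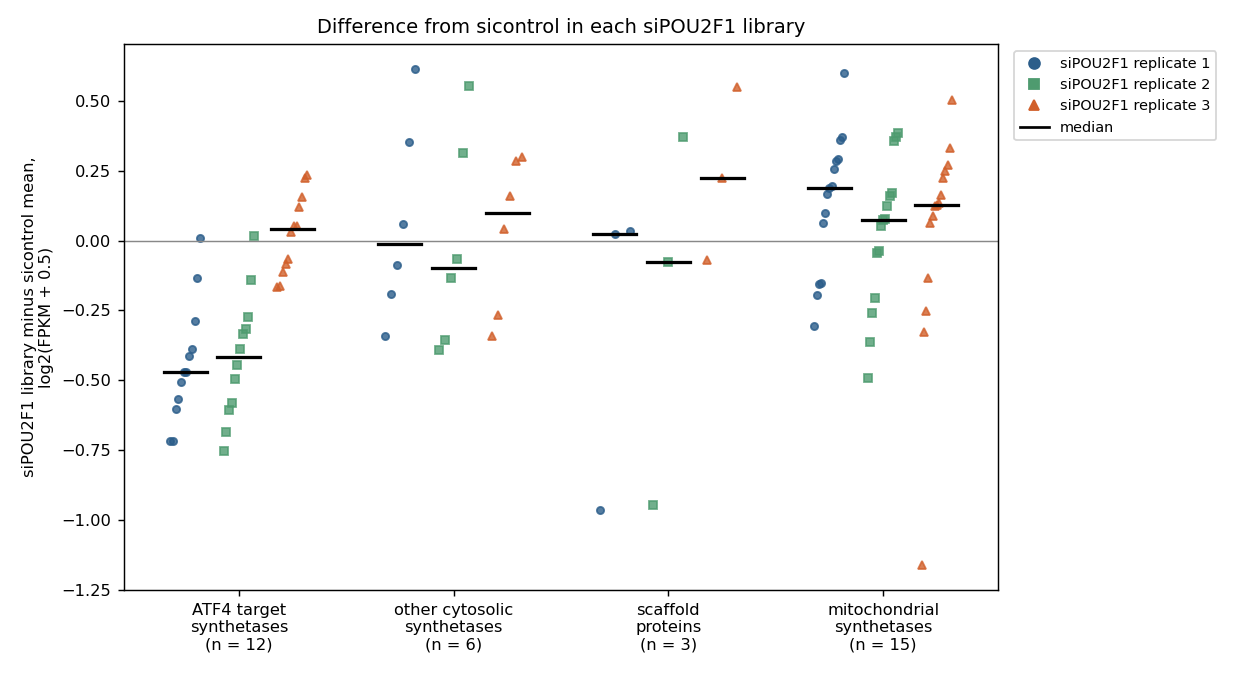
Difference of each siPOU2F1 library from the sicontrol mean, in log2(FPKM + 0.5), for 12 ATF4 target synthetases, 6 other cytosolic synthetases, 3 scaffold proteins and 15 mitochondrial synthetases (1 point per gene; black bars are medians). The ATF4 target medians are -0.47 and -0.42 in siPOU2F1 replicates 1 and 2 and 0.04 in replicate 3, whereas the mitochondrial medians are 0.19, 0.07 and 0.13.

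ATF4 with a C/EBP partner is known to bind a composite element, and the members' promoters were searched for its letters. RefSeq promoter windows (GRCh38.p14; 250 bases before to 50 after a start) were found for 33 of the 38 members. The letters TGATGCAA, or TTGCATCA on the other strand, were present in windows of 6 members, all cytosolic and all on the ATF4 target list, beside 1.08% of all gene symbols with a window (0.866% of 35116 windows, since a gene can have several). These are shown, 5′ to 3′ on the strand of the gene, with the element in capitals:
AARS1, chr16:70289675-70289704, minus strand: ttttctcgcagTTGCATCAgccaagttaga
CARS1, chr11:3057407-3057436, minus strand: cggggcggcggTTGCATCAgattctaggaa
IARS1, chr9:92293692-92293721, minus strand: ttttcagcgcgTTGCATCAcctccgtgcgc
MARS1, chr12:57488053-57488082, plus strand: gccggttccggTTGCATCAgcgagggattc
NARS1, chr18:57621804-57621833, minus strand: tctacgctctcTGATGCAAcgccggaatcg
TARS1, chr5:33440956-33440985, plus strand: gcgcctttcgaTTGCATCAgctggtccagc

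In 5 of these the element began within 15 bases of the RefSeq start, and in AARS1 it began 187 bases before it. All 6 had negative fold changes, from -0.39 (TARS1) to -0.24 (AARS1), with a median of -0.29. The 13 cytosolic members with a window but without those letters had a median of -0.04, and 8 were negative. Of the 6 and of the 13, 0 were called, beside 1.24% of all tested genes. Groups overlapped for 5 of the 6, and 1 was lower in every siPOU2F1 library. Of the 13, 10 overlapped, 2 were lower and 1 was higher. Over all tested genes, groups were apart for 12% on the lower side and 11.3% on the higher. In siPOU2F1 replicate 3 the medians were 0.04 for the 6 and 0.05 for the 13. The difference between the 6 and the 13 was not tested. WARS1 (-0.47), GARS1 (-0.39), SARS1 (-0.21) and EPRS1 (0.05), also on the ATF4 target list, were among the 13. Negative fold changes were found among genes with and without the element. The octamer ATGCAAAT (ATTTGCAT on the other strand) was in none of the 33 members' windows, beside 2.19% of all symbols (1.77% of windows). The cAMP response element TGACGTCA, the same on both strands, was in an AIMP2 window, beside 2.25% of all symbols (1.85% of windows). The E-box CACGTG, also the same on both strands, was in windows of AIMP2, IARS1, CARS2, EARS2 and MARS2, beside 8.77% of all symbols (7.26% of windows). The octamer, as spelled, shares its run ATGCAA with the composite element. A match describes the sequence alone and shows no binding.

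ATF4 and other stress response genes, not all of them ATF4 targets, were read from a list of 19 genes beside the synthetases. ATF4 itself, named for its role after its values were seen, measured 229, 217 and 246 FPKM in sicontrol and 177, 216 and 221 FPKM in siPOU2F1 (-0.18, SE 0.12, adjusted p = 0.426). Of the 19, 16 were negative, the median was -0.36, and 0 were called (limma; 4 lower and 1 higher at an unadjusted p under 0.05). Over all tested genes 51.5% were negative and 1.24% were called, with 9.9% lower and 8.22% higher at that unadjusted level. The lowest p-values were those of DDIT4, an inhibitor of mTORC1 signalling (0.92, adjusted p = 0.169), SHMT2, the mitochondrial serine hydroxymethyltransferase (-0.34, adjusted p = 0.229), and SLC7A5, a leucine transporter (-0.36, adjusted p = 0.233). Medians of this list were -0.64, -0.54 and 0.07 in siPOU2F1 replicates 1 to 3, with the same library apart as among the synthetases, and 10 of the 19 were called lower and 1 higher without it, where 15.8% of all tested genes were called lower and 9.48% higher. In that fit DDIT4 had 1.26 (adjusted p = 0.00528), SHMT2 -0.45 (adjusted p = 0.0207) and SLC7A5 -0.49 (adjusted p = 0.0165). Of 7 kinases and regulators that sense uncharged tRNA or act on eIF2, 0 were called. Beside 9.9% of all tested genes, 2 of the 7 were lower at an unadjusted p under 0.05 (limma). These were PPP1R15B (-0.43, adjusted p = 0.219) and PPP1R15A (-0.92, adjusted p = 0.254), subunits of eIF2 phosphatases, and EIF2AK2, the RNA-activated kinase, followed with -0.27 (adjusted p = 0.282). Without siPOU2F1 replicate 3, PPP1R15A was called lower (-1.26, adjusted p = 0.0280) and EIF2AK1, the heme-regulated eIF2 kinase, named after its values were seen, higher (0.32, adjusted p = 0.0417). EIF2AK4, the GCN2 kinase that senses uncharged tRNA, is named for that role after its values were seen and had 0.21 (adjusted p = 0.482).

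Among the mitochondrial synthetases, HARS2 and TARS2 had the lowest p-values, both with higher means in siPOU2F1. HARS2 (ENSG00000112855; chromosome 5, 140691426 to 140699318, plus strand), the histidine enzyme, measured 16.2, 16.7 and 17.6 FPKM in sicontrol and 20.7, 21.7 and 24.1 FPKM in siPOU2F1. The means were 16.8 ± 0.677 and 22.2 ± 1.72 FPKM (SD, n = 3 each), and the log2 fold change came to 0.39 ± 0.11 (SE; adjusted p = 0.139). Every siPOU2F1 library, replicate 3 included, exceeded every control. TARS2 (ENSG00000143374; chromosome 1, 150487364 to 150507609, plus strand), for threonine, measured 6.87, 6.71 and 8.58 FPKM in sicontrol and 11.4, 9.63 and 8.82 FPKM in siPOU2F1 (0.41, SE 0.15, adjusted p = 0.231). The groups were apart, though siPOU2F1 replicate 3 and sicontrol replicate 3 were close. Without siPOU2F1 replicate 3, HARS2 had 0.33 (adjusted p = 0.0518) and TARS2 0.49 (adjusted p = 0.0551).

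HARS2 and its cytosolic counterpart HARS1 are transcribed in opposite directions from neighbouring starts, 85 bases apart in RefSeq. The stretch common to both promoter windows is shown because the data give different values for the genes on its sides. It runs 5′ to 3′ on the plus strand, with the first base of HARS1 (transcribed to the left) and of HARS2 (to the right) in capitals, GRCh38.p14:
HARS1-HARS2, chr5:140691321-140691504: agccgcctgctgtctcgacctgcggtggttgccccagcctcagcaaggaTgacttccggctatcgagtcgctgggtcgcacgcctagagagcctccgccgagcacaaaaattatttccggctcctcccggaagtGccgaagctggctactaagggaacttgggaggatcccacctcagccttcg

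HARS1 measured 24.5, 31.8 and 30.2 FPKM in sicontrol and 29.9, 27.4 and 35.0 FPKM in siPOU2F1, with overlapping groups (0.09, SE 0.14, adjusted p = 0.736; -0.0032 without siPOU2F1 replicate 3). HARS2 had 0.39, as above. The ratio of HARS1 to HARS2 within a library was 1.51, 1.90 and 1.72 in sicontrol and 1.44, 1.26 and 1.45 in siPOU2F1, lower in every siPOU2F1 library. HARS2 shares 11.7% of its exonic bases with HARS1 on the opposite strand in GENCODE, so part of the reads could be assigned to either if strand was not used.

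Other mitochondrial members with groups apart were WARS2, EARS2, YARS2 and RARS2 on the higher side and CARS2 and AARS2 on the lower. In all, 6 of 15 tested mitochondrial members were higher in every siPOU2F1 library than in any control and 2 were lower, against 1 and 3 of 21 cytosolic members and 11.3% and 12% of all tested genes. WARS2, for tryptophan, measured 3.45, 3.47 and 3.30 FPKM in sicontrol and 4.26, 4.60 and 3.79 FPKM in siPOU2F1 (0.27, adjusted p = 0.331). EARS2 charges both glutamate tRNA and, as the first step of an indirect route, glutamine tRNA in mitochondria. It measured 4.43, 5.49 and 5.35 FPKM against 6.14, 5.72 and 6.0 FPKM (0.21, adjusted p = 0.407). YARS2, for tyrosine, measured 11.4, 13.4 and 13.3 FPKM against 14.3, 13.4 and 16.1 FPKM (0.19, adjusted p = 0.420), with sicontrol replicate 2 and siPOU2F1 replicate 2 almost level. RARS2 had 0.09 (adjusted p = 0.615). CARS2 measured 22.9, 23.6 and 22.5 FPKM in sicontrol and 20.6, 19.9 and 19.2 FPKM in siPOU2F1 (-0.20, adjusted p = 0.307). AARS2, for alanine, measured 3.75, 3.61 and 4.29 FPKM against 3.32, 3.16 and 3.49 FPKM (-0.20, adjusted p = 0.452). These differences were small, none passed the test, and all of these genes kept their sign without siPOU2F1 replicate 3.

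The remaining mitochondrial members had overlapping groups. FARS2, a single-chain phenylalanine enzyme, measured 3.53, 3.53 and 3.77 FPKM in sicontrol and 4.77, 3.76 and 3.97 FPKM in siPOU2F1 (0.18, adjusted p = 0.506). IARS2 measured 44.4, 38.7 and 49.8 FPKM against 50.2, 49.7 and 35.0 FPKM (0.01, adjusted p = 0.976), and NARS2 24.3, 20.3 and 26.8 FPKM against 25.4, 25.8 and 24.7 FPKM (0.09, adjusted p = 0.690). LARS2 (0.08), MARS2 (-0.18) and PARS2 (-0.12) had adjusted p from 0.656 to 0.729. SARS2, the lowest tested member, measured 2.45, 0.702 and 1.64 FPKM in sicontrol and 2.04, 1.40 and 0.377 FPKM in siPOU2F1 (-0.28, SE 0.47, adjusted p = 0.759). Its spread within each group was wider than the difference between them, and its sign turned without siPOU2F1 replicate 3 (0.16) or without sicontrol replicate 1 (0.015). SARS2 shares 46.2% of its exonic bases with ENSG00000269547 on the same strand, which was near 0 (means of 0.0311 and 0.00464 FPKM).

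Set side by side for the same amino acid, the ratio of the cytosolic to the mitochondrial gene within a library does not depend on how that library was scaled. In sicontrol the cytosolic gene was the more abundant in all 16 pairs with both members tested (EPRS1, which charges both glutamate and proline, stands for both). The ratio of geometric means ran from 1.70 for HARS1 over HARS2 to 106 for SARS1 over SARS2. The ratio was lower in siPOU2F1 in 14 of 16 pairs, with a median difference of -0.26 in log2, and in 15 of 16 with a median of -0.39 without siPOU2F1 replicate 3. The pairs share their libraries, and the count was not tested. They also share genes, since FARS2 stands in both the FARSA and the FARSB pair and EPRS1 in both the glutamate and the proline pair. In 4 pairs every siPOU2F1 library was below every control: the phenylalanine alpha, histidine, arginine and tyrosine pairs. YARS1 over YARS2 was 11.4, 10.8 and 8.27 in sicontrol and 5.86, 6.35 and 7.09 in siPOU2F1, a difference of -0.65. RARS1 over RARS2 was 2.41, 2.23 and 2.85 in sicontrol and 1.87, 1.79 and 1.78 in siPOU2F1, a difference of -0.45. The widest differences were those of TARS1 over TARS2 (-0.82) and WARS1 over WARS2 (-0.78), in both of which siPOU2F1 replicate 3 overlapped the controls. TARS1 over TARS2 was 24.2, 29.7 and 16.6 in sicontrol and 8.95, 10.8 and 22.4 in siPOU2F1. The ratio was higher in siPOU2F1 for EPRS1 over PARS2 (0.19) and for SARS1 over SARS2 (0.24), the latter resting on the uneven values of SARS2.

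**Figure D4:**
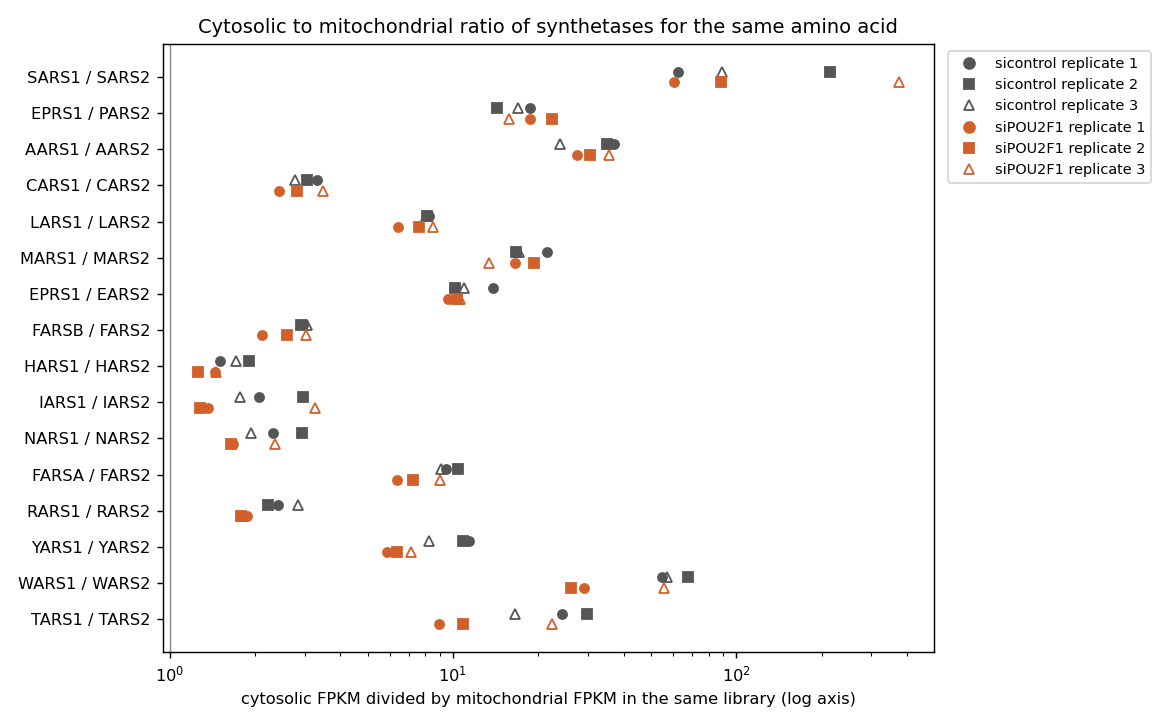
Cytosolic FPKM divided by mitochondrial FPKM in each library (log axis) for 16 synthetase pairs, ordered by the difference between groups (grey for sicontrol, orange for siPOU2F1, a marker shape for each replicate, open for replicate 3). All ratios lie above 1; the YARS1 / YARS2, RARS1 / RARS2, HARS1 / HARS2 and FARSA / FARS2 pairs have every siPOU2F1 point to the left of every sicontrol point.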

How the data were processed

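PolyA RNA of 6 HCT116 libraries, 3 per group, was sequenced from 2 µg of total RNA each, per the labels' protocols. The authors deposited FPKM values, 1 table per library with 22782 features, of which 20474 were annotated genes. StringTie 2.1.2, HISAT2 2.0.4, Bowtie2 2.2.5 and hg38 appear, without roles, per the submitters' processing notes. Annotation release, filters and strand setting: not given in the sources used here.

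Absolute depth is unknown, because FPKM carry no counts, and no counting interval is given. Relative depth came from low values differing by 1 common ratio between libraries (13 to 24 genes per library). Values were used unscaled as log2(FPKM + 0.5). Genes averaging at least 1 FPKM were tested, 11831 in all, with limma 3.58.1 in R 4.3.3 (trended prior variance, a group term alone, two-sided) and Benjamini-Hochberg adjustment over all of them; called means an adjusted p under 0.05. The log scale understates fold changes of low genes. On simulated data with 11831 genes for this comparison, the fit recovered 6.87% of changes of 0.5 in log2, 50.1% at 1 and 88.7% at 2, with 4.72% of calls false. The simulated noise was independent between genes and libraries, and no library stood apart, so these rates may not hold for the real libraries.

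Full values are given for POU2F1, the 8 cytosolic and 8 mitochondrial members with the lowest p and the 2 highest and 2 lowest of each by level. For other lists, up to 3 genes with the lowest p are named. Members named beyond that are given by level or fold change unless stated. Members and lists were chosen with earlier results of these data known. Alternatives were other pseudocounts, filters and scalings, library weights, a replicate block and leaving out each library. Positions and exon overlaps came from GENCODE release 29 (GRCh38, 1-based) and promoters from RefSeq (GRCh38.p14). Of 45 member windows, 42 held, past the start, bases found in a GENCODE transcript of the gene. Python 3.11.15, numpy 2.4.6, pandas 2.3.3 and matplotlib 3.10.9 were used.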

Additional observations from a re-analysis of the deposited data

How the results depend on the processing

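The cytosolic, mitochondrial and difference medians (-0.24, 0.09 and -0.33 in log2) kept their signs under every alternative tried. Leaving out each library in turn, they ranged from -0.37 to -0.17, from 0.077 to 0.12 and from -0.49 to -0.26. Pseudocounts of 0.1 and 1, filters at 5 FPKM or none, TPM, median-ratio and quantile scaling called 0 members (limma; 5 to 6 cytosolic and 2 to 3 mitochondrial members at an unadjusted p under 0.05). Over all genes that level was reached by 1735 of 8695 with the 5 FPKM filter and by 2597 of 17365 without a filter. Calls over all genes numbered 147, and 72 without a filter, where POU2F1 had -0.99 with an adjusted p of 0.0650. Library weights called 5963 of all 11831 tested genes (3312 lower and 2651 higher) and gave siPOU2F1 replicate 3 the lowest weight. With them 16 of 21 cytosolic members were called (13 lower, 3 higher) and 6 of 15 mitochondrial members (2 lower, 4 higher). Leaving out 1 library gave between 0 and 2990 called genes, 0 to 11 cytosolic and 0 mitochondrial members called, and -1.06 to -0.95 for POU2F1; 2990 and 11 came without siPOU2F1 replicate 3. POU2F1 lost its call without any 1 of the other 5 libraries (adjusted p from 0.114 to 0.222). Among the 36 tested members, signs turned for IARS2 (-0.010 at TPM scale; -0.083 to 0.18 over left-out libraries), FARSB (0.0021 with median-ratio scaling; -0.11 to 0.035), EEF1E1 (0.027 with library weights; -0.10 to 0.063), EPRS1 (-0.025 with library weights) and, over left-out libraries, NARS2 (-0.013 to 0.18), SARS2 (-0.63 to 0.16), HARS1 (-0.018 to 0.17), LARS1 (-0.14 to 0.0092) and PARS2 (-0.26 to 0.0065). The 5 FPKM filter removed POU2F1 and left 10 mitochondrial members. With the replicate number as a block, 0 genes were called (limma; 1208 at an unadjusted p under 0.05) and POU2F1 had -0.99 with an adjusted p of 0.297. The sources used here do not say whether the numbers pair the libraries. Deviations of same-numbered libraries correlated at 0.13, -0.54 and -0.51. With 3 libraries per group and siPOU2F1 replicate 3 standing apart, these values cannot decide on pairing. The causes of these changes were not tested. Unknown depth limits what can be said of VARS1, VARS2 and SARS2.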

Other observations

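Steps next to aminoacylation were read from a list of 12 genes for editing, amidation, formylation and selenocysteine. None was called (limma; 2 higher and 0 lower at an unadjusted p under 0.05), and the median log2 fold change was 0.07. Over all tested genes 8.22% were higher and 9.9% lower at that level. The lowest p-values were those of GATB, MTFMT and AARSD1. GATB, a subunit of the amidotransferase that turns glutamate into glutamine on the mitochondrial tRNA charged by EARS2, measured 5.88, 6.23 and 7.21 FPKM in sicontrol. It measured 8.34, 9.19 and 8.47 FPKM in siPOU2F1, above every control (0.40, SE 0.13, adjusted p = 0.172). The other subunits, looked at after their values were seen, were QRSL1 at 0.16 and GATC at -0.12 (adjusted p = 0.604 and 0.580). MTFMT, which formylates the mitochondrial methionyl-tRNA, measured 4.30, 3.99 and 5.83 FPKM against 6.68, 6.94 and 6.05 FPKM (0.45, SE 0.17, adjusted p = 0.224). AARSD1, a cytosolic editing protein related to AARS1, had -0.41 (adjusted p = 0.288). None of the 12 was called without siPOU2F1 replicate 3, where GATB had 0.42 (adjusted p = 0.0575) and MTFMT 0.51 (adjusted p = 0.0719). The median of the list turned negative in that fit (-0.04).

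Factors that take charged tRNA onward were read from a pair of lists. Of 11 mitochondrial translation factors, 0 were called (limma; 1 lower and 0 higher at an unadjusted p under 0.05) and the median was -0.01. Over all tested genes 9.9% were lower and 8.22% higher at that level. MTRF1L, a mitochondrial release factor, had the lowest p. It measured 12.2, 14.4 and 10.5 FPKM in sicontrol and 4.99, 5.0 and 8.83 FPKM in siPOU2F1, with all siPOU2F1 libraries below all controls (-0.97, SE 0.24, adjusted p = 0.113; -1.22 and 0.00653 without siPOU2F1 replicate 3). TUFM had 0.18 and MTIF3 0.27. GUF1, named after its values were seen, was the other factor called lower in that fit (-0.55, adjusted p = 0.0165). In all, 2 of the 11 were called lower there, beside 15.8% of all tested genes. Of 7 cytosolic elongation factors, 0 were called (limma; 0 at an unadjusted p under 0.05), 6 were positive and the median was 0.14. Over all tested genes 51.5% were negative. EEF2, which moves the ribosome along the message, had the lowest p. It measured 483, 362 and 591 FPKM in sicontrol and 809, 819 and 453 FPKM in siPOU2F1 (0.51, SE 0.27, adjusted p = 0.353), again with siPOU2F1 replicate 3 among the controls. Without that library EEF2 had 0.79 and was called (adjusted p = 0.0300). EEF1D had 0.22 and EEF1A2 0.36.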
